A study of Mus musculus with 72 samples.

Results

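The microglial genes described here are 29 genes that mark the resident macrophages of the brain, measured in whole mouse hippocampus after contextual fear conditioning. They were chosen by name as a list, and each was read from a probe set annotated to its symbol alone, which every one of the 29 had, exactly 1 each. They are 29 of 18820 genes with such a probe set on the array. Of the list, 11 are identity receptors and surface or secreted proteins of resting microglia, 3 are the chains of complement C1q, 4 are activating receptors and their adaptors, 9 are broader myeloid and leukocyte genes and 2, Il1b and Tnf, are inflammatory cytokines.

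Microglia survey the brain with fine processes, guided by receptors for neuronal signals such as fractalkine, read by Cx3cr1, and extracellular ADP, read by P2ry12 and P2ry13. They depend on signalling through Csf1r to survive, tag and engulf synapses with the help of C1q, and when activated switch from these resting genes to lysosomal, phagocytic and cytokine genes. In the hippocampus they are known for pruning synapses and for releasing interleukin 1 beta and tumour necrosis factor, both of which can alter synaptic plasticity.

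Gene expression was compared between mice that learned a context, mice that recalled it and mice that were only handled, each group holding 9 arrays from 9 animals. All were adult male C57BL/6J mice, 2 months old and housed singly, with no genetic change and 3 days of handling, and training at ZT3 (3 h after lights on) paired the chamber with a single foot shock of 2 s and 1.5 mA. Trained animals were dissected at 1 of 4 delays, FC30 after 30 min, FC4 after 4 h, FC12 after 12 h and FC24 after 24 h, and the retrieval group (RT30) was returned to the chamber for 5 min on the day after training and dissected 30 min later. Handled, untrained animals were dissected at the clock times of FC30 (CC30), FC4 (CC4) and FC12 (CC12), so that CC30 served FC30, RT30 and FC24, and FC12 and CC12 fell in the dark phase. No group received the shock or the chamber alone, so the association, the context and the shock cannot be told apart.

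Array medians lay between 5.82 and 5.88 on the log2 scale, and 6 of the 72 arrays stood apart from their group on the first or second principal component. The training labels held in the activity genes: 8 of 8, among them Arc and Fos, rose in FC30 and in RT30 against CC30. Summed markers of neurons stayed between 14.88 and 14.99 on the log2 scale in every mouse. Choroid plexus, a tissue beside the hippocampus, varied widely: its 7 measured markers of 8 listed, Ttr the brightest, summed to 8.82 in the lowest and 12.75 in the highest mouse. Of the 29 members, Gpr34, Aif1, Il1b and Tnf had mean signals in the dimmest 33.3% of all probe sets (4.25, 4.56, 4.15 and 4.27), and the other 25 lay above it.

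The promoters below are of the 4 members that passed a test somewhere in the series and of 2 genes, C1qb and C1qc, whose signals moved together between mice. Each is the RefSeq window of the build GRCm38.p6 from 250 bases before to 50 bases after the transcription start, read 5′ to 3′ on the gene's strand. Capitals mark GAGGAA or its reverse complement, the core of the site bound by PU.1, the ETS factor on which microglia depend.
Cx3cr1, chr9:120068247-120068546, minus strand: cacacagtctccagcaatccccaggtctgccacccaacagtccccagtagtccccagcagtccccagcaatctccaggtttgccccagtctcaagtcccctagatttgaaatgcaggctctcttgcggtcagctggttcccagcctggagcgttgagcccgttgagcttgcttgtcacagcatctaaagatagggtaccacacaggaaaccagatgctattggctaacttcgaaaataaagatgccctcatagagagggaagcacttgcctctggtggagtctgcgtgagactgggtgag
Siglech, chr7:55767934-55768233, plus strand: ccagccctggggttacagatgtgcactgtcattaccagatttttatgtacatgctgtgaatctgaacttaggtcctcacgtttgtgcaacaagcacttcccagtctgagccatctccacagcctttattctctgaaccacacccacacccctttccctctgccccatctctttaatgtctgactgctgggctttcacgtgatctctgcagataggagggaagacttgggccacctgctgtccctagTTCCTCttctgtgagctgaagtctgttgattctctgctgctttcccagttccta
Olfml3, chr3:103737952-103738251, minus strand: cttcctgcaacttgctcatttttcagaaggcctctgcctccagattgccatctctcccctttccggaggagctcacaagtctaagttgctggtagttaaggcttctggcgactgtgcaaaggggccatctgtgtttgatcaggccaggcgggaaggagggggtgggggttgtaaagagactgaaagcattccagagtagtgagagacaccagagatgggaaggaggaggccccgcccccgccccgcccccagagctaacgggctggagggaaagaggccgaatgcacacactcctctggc
Fcer1g, chr1:171234300-171234599, minus strand: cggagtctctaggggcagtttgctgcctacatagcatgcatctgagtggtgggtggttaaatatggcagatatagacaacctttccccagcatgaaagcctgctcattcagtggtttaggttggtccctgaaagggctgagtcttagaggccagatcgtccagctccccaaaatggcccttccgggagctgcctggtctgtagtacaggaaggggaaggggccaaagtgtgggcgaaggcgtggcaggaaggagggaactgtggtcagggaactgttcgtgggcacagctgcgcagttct
C1qb, chr4:136886151-136886450, minus strand: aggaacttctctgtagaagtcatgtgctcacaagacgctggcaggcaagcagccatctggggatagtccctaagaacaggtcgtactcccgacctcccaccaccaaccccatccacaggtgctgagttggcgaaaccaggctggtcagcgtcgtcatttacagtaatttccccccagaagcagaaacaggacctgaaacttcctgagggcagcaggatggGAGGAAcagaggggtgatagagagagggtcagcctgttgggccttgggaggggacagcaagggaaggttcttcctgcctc
C1qc, chr4:136892865-136893164, minus strand: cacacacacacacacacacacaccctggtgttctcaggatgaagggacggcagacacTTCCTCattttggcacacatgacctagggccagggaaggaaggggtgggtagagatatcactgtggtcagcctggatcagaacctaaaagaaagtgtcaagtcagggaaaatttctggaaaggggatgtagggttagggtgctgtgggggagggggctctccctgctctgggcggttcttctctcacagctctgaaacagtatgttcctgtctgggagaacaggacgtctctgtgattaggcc
Of the 29 members, 23 had such a window, and 15 of the 23 held GAGGAA on either strand, while 31.3% of 27025 genes did. The longer form GAGGAAGT, which contains the shorter one, stood in 3 of 23 (C1qc, Ctss and Cd53), against 3.69% of genes, again on both strands. The ETS-IRF composite motif was found in 1 (Cd68), against 3.16%, the AP-1 site TGANTCA in 2 (Trem2 and Cd68), against 8.97%, and the NF-kB motif in 2 (C1qc and Fcgr3), against 5.14%. No GAGGAA stood in the windows printed for Cx3cr1, Olfml3 and Fcer1g, which says nothing about binding elsewhere.

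The first question was whether microglial genes respond within 30 min of learning. None of the 29 members passed an adjusted p of 0.1 in FC30 against CC30 by limma, where 0.256% of 35556 probe sets did, and 1, Siglech, had an unadjusted p under 0.05, as did 6.76% of probe sets. The median log2 fold change of the 29 was -0.03 (24 below 0), while the median over all probe sets was 0.00. Intervals of 95% for single members reached from -0.22 (Siglech) to 0.15 (Cd53), which is 0.859 to 1.11 on the fold scale. Each interval holds for 1 gene at a time in whole tissue, so a larger change of a dim gene or within few cells could be missed. Markers of other cells also lay below 0 in FC30 against CC30, with 9 of 9 endothelial (median -0.07), 10 of 10 astrocyte (-0.01), 5 of 5 oligodendrocyte precursor (-0.05) and 7 of 9 border macrophage genes (-0.05), and 0 called in each list. The choroid plexus sum was 9.08, 10.44 and 12.35 (lowest, median and highest mouse) in FC30, against 9.04, 9.28 and 11.86 in CC30. Of its markers, 7 of 7 were above 0 and 0 called. With that sum as a covariate, chosen after seeing the data, Siglech again did not pass. The part of the other cells in the members' values was not tested. Whole tissue was assayed, and fewer microglia cannot be told apart from less RNA in each of them.

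Siglech, a sialic acid binding lectin found on microglia, was the nearest to the threshold. Its log2 signal was 6.73, 6.86 and 7.03 (lowest, median and highest mouse) in FC30, against 6.82, 7.02 and 7.10 in CC30. The groups overlapped, although 8 of 9 FC30 mice lay below the CC30 mean, and the log2 fold change was -0.13 (SE 0.04, limma adjusted p = 0.525). Csf1r, the receptor for colony stimulating factor 1, had nearly the same signal in both groups, with 8.31, 8.45 and 8.52 in FC30 and 8.40, 8.41 and 8.54 in CC30. P2ry12 and Tmem119, often used to tell microglia from other macrophages, averaged 7.24 ± 0.07 and 7.39 ± 0.05 in FC30 and 7.26 ± 0.08 and 7.41 ± 0.05 in CC30 (SD, n = 9 each).

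After retrieval of the memory, 0 of 29 members passed in RT30 against CC30, where 0.278% of probe sets did. At an unadjusted p under 0.05, 4 members were lower (Siglech, Cx3cr1, P2ry13 and the myeloid transcription factor Irf8) and 0 higher, while 6.91% of probe sets reached that level and 3.69% did so on the lower side. Siglech had 6.60, 6.74 and 6.94 in RT30, against 6.82, 7.02 and 7.10 in CC30. All 9 RT30 mice fell below the CC30 mean and 7 below every CC30 mouse, with a log2 fold change of -0.21 (SE 0.05, limma adjusted p = 0.120). This value passed the threshold in 5 of 15 other settings. The lowest adjusted p was 0.00704, in the fit of all 8 groups together, and the highest adjusted p or local false discovery rate was 0.385. Of 18 fits that each left out 1 array, it passed in 3. These were the fits without CC30 replicate 4, RT30 replicate 4 or RT30 replicate 9 (limma adjusted p = 0.0911, 0.0557 and 0.0531), and the others reached 0.225.

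P2ry13, an ADP receptor, had its lowest group mean in RT30 (8.26), with CC12 close to it (8.28). Its signal was 7.99, 8.30 and 8.41 in RT30, against 8.31, 8.40 and 8.62 in CC30. It differed by -0.19 on the log2 scale from CC30 (SE 0.06, limma adjusted p = 0.372) and by -0.21 from FC24, the mice left undisturbed for the same time since training (adjusted p = 0.385), where 0 of 29 members passed and 0.152% of probe sets did (at an unadjusted p under 0.05, 2 members and 6.2% of probe sets). The fractalkine receptor Cx3cr1 spread least of all groups in RT30, with 7.88, 7.92 and 8.02, against 7.93, 8.05 and 8.13 in CC30. All 9 RT30 mice lay below the CC30 mean, yet the difference of -0.11 (SE 0.03) had an adjusted p of 0.247. In the same comparison 1 of 9 endothelial markers, Cldn5, was lower at -0.20 (adjusted p = 0.0673), and its part was not tested.

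**Figure D1:**
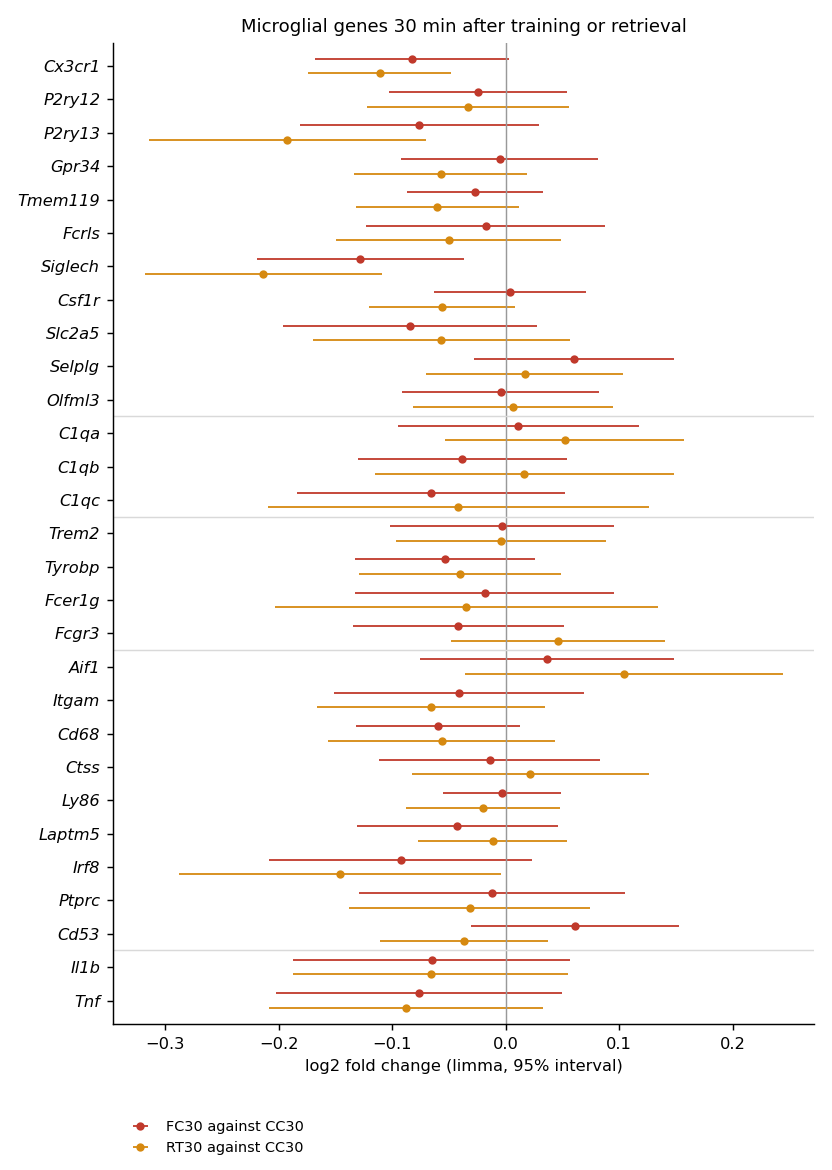
Log2 fold change of each of the 29 microglial genes (points, with 95% intervals from limma) in FC30 and in RT30, both against CC30, 9 mice in each group. No point is past an adjusted p of 0.1, and the interval farthest from 0 is that of Siglech in RT30, down to -0.32.

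At later times after training no member passed the threshold. In FC4 against CC4, in FC12 against CC12 and in FC24 against CC30, 0 of 29 members passed, as did 0% of probe sets in each, and unadjusted p values under 0.05 belonged to 3 members in FC4 (P2ry12, Slc2a5 and C1qb), 3 in FC12 (Cx3cr1, Fcer1g and Ctss) and 1 in FC24 (Tnf), where 5.35%, 4.06% and 4.31% of probe sets reached that level. P2ry12 was below the CC4 mean in 9 of 9 FC4 mice, at -0.09 (SE 0.04, adjusted p = 0.922), and Cx3cr1 above the CC12 mean in 9 of 9 FC12 mice, at 0.09 (SE 0.04, adjusted p = 1.00). The complement chains C1qa, C1qb and C1qc, which form the first component of the classical cascade and varied together between mice, had log2 fold changes of 0.09, 0.10 and 0.07 in FC4, with an adjusted p of 0.922 for each of C1qa, C1qb and C1qc. In the same comparison 8 of 9 border macrophage (median 0.07), 8 of 10 astrocyte (0.03) and 7 of 9 neuron markers (0.03) were above 0, with 0 called. RT30 against FC30 gave 0 of 29 members as well, with 0% of probe sets called and 2 members under an unadjusted p of 0.05 (Fcgr3 and Cd53), as were 3.9% of probe sets. The methods' t-test, with either Benjamini-Hochberg or local false discovery rates, also called 0 members in each comparison of learning or retrieval.

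The inflammatory cytokines gave no call in any of the 13 comparisons. Il1b had 4.04, 4.13 and 4.32 in FC30 and 3.99, 4.15 and 4.32 in RT30, against 3.98, 4.25 and 4.44 in CC30. Tnf had 4.11, 4.26 and 4.49 in FC30 and 4.11, 4.27 and 4.40 in RT30, against 4.10, 4.38 and 4.55 in CC30. Neither cytokine separated any pair of groups, and all 8 group means of Il1b lay between 4.13 and 4.21 and those of Tnf between 4.21 and 4.34. Both signals are dim and the deposited values carry no detection calls, so a small rise from a low level could not be seen here.

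**Figure D2:**
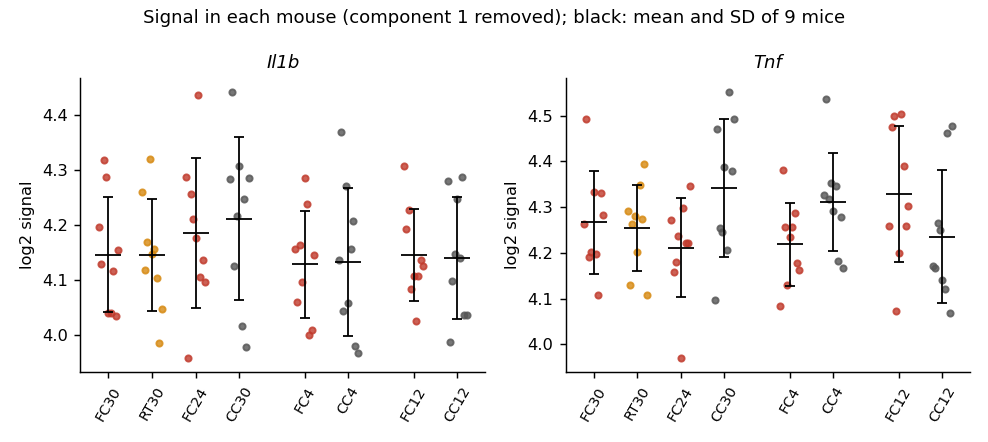
Log2 signal of Il1b and Tnf in each mouse (points) over the 8 groups, with mean and SD of 9 mice in black, trained groups left of their controls. Every group overlaps every other, with group means of Il1b from 4.13 to 4.21 and of Tnf from 4.21 to 4.34.

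Of a wider list of inflammatory genes (27 of 28 measured), 1 was called in FC30 and in RT30, Nfkbia, the inhibitor of NF-kB, whose log2 fold change against CC30 was 0.26 (SE 0.04, limma adjusted p = 0.00540) and 0.30 (SE 0.05, adjusted p = 0.00641), with 9 of 9 mice above every CC30 mouse both times. At an unadjusted p under 0.05 the list had 4 genes higher and 2 lower in FC30, and 3 higher and 3 lower in RT30, Nfkbia included, where 6.76% and 6.91% of probe sets reached that level in either direction. Among them Tsc22d3, a glucocorticoid induced inhibitor of NF-kB, was at 0.11 in FC30 and 0.19 in RT30 (adjusted p = 0.525 and 0.145), and the cytokine Il1a at -0.19 in both (adjusted p = 0.501 and 0.547). Of 13 measured genes that mark microglia around damage or plaques and of 9 genes of border macrophages, which live in the meninges and around vessels, 0 passed in either comparison.

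All calls among the members were between groups of different clock times, and the differences were small. In untrained mice, 4 members were lower in the dark phase (CC12) than in the morning (CC30), which is 4 of 29 where 1.44% of probe sets were called lower and 3.5% in either direction. These were Cx3cr1, Olfml3, Siglech and Fcer1g, and 0 members were called higher. The median of the 29 was -0.07 (26 below 0), while that of all probe sets was 0.00. In CC12 against CC4, 2 members were lower (Cx3cr1 and Siglech), where 2.47% of probe sets were called lower and 5.01% in either direction, again with a median of -0.06 (24 below 0). Both comparisons use the same 9 CC12 mice.

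Cx3cr1 had 7.64, 7.86 and 7.89 in CC12, against 7.93, 8.05 and 8.13 in CC30 and 7.90, 7.98 and 8.17 in CC4. Every CC12 mouse lay below every CC30 and every CC4 mouse. The log2 fold change was -0.25 against CC30 (SE 0.04, limma adjusted p = 0.00265) and -0.20 against CC4 (SE 0.04, adjusted p = 0.0176). It passed when any 1 array was left out, with adjusted p up to 0.00678 against CC30 and 0.0373 against CC4.

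Olfml3, a secreted protein with an olfactomedin domain that microglia make in quantity, had 8.68, 8.81 and 8.83 in CC12, against 8.77, 8.97 and 9.05 in CC30. All 9 CC12 mice lay below the CC30 mean and 4 below every CC30 mouse, with a log2 fold change of -0.16 (SE 0.03, limma adjusted p = 0.0198) that passed when any 1 array was left out. Against CC4, which had 8.71, 8.90 and 8.96, the difference of Olfml3 was -0.10 (SE 0.03, adjusted p = 0.129), and it passed only without CC4 replicate 7, the lowest mouse of its group (adjusted p = 0.0296).

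Siglech had 6.73, 6.81 and 6.99 in CC12, against 6.82, 7.02 and 7.10 in CC30 and 6.88, 6.98 and 7.09 in CC4. The groups overlapped by a few mice, 6 of 9 CC12 mice lying below every CC30 mouse and 7 of 9 below every CC4 mouse. The differences were -0.15 (SE 0.04, limma adjusted p = 0.0987) and -0.16 (SE 0.04, adjusted p = 0.0400). The call of Siglech against CC30 was at the edge: of 18 fits that each left out 1 array it passed in 4, without CC30 replicate 4 or 9 or CC12 replicate 5 or 6 (adjusted p from 0.0492 to 0.0732), and it was lost in the others (up to 0.168), while against CC4 it passed in all 18.

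Fcer1g, the signalling chain that several Fc receptors share, had 7.20, 7.26 and 7.40 in CC12, against 7.19, 7.53 and 7.64 in CC30. CC12 mice sat in the lower part of a wide CC30 range, all below its mean and none below every CC30 mouse. The log2 fold change was -0.18 (SE 0.05, limma adjusted p = 0.0991), and the call passed in only 3 of 18 fits that left out an array, those without CC30 replicate 3 or 5 or CC12 replicate 6 (adjusted p = 0.0409, 0.0228 and 0.0892), and reached 0.176 in the others.

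Several members of the same kind leaned the same way without passing. P2ry13 had 8.08, 8.29 and 8.54 in CC12, with differences of -0.17 from CC30 (SE 0.06, limma adjusted p = 0.179) and -0.19 from CC4 (SE 0.06, adjusted p = 0.104). The Fc receptor-like gene Fcrls had 6.84, 7.04 and 7.26 in CC12, against 7.00, 7.23 and 7.32 in CC30, a difference of -0.16 (SE 0.06, adjusted p = 0.210). By contrast P2ry12, the sister receptor of P2ry13, differed by -0.02 from CC30 (SE 0.04, adjusted p = 0.876), and Csf1r by -0.05 (SE 0.03).

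By role, the called members were 3 of the 11 identity genes and 1 of the 4 activating receptors and adaptors in CC12 against CC30. Of the 11, 10 were below 0 with a median of -0.09, and the exception was Selplg, a ligand of selectins. Complement C1q (3 of 3 below 0, median -0.06) and the 9 myeloid and leukocyte genes (9 below 0, median -0.07) had 0 calls. This last group holds the calcium binding protein Aif1, the integrin Itgam, the lysosomal proteins Cd68, Ctss and Laptm5, the lymphocyte antigen Ly86, Irf8, the phosphatase Ptprc (CD45) and the tetraspanin Cd53. Trem2, a lipid sensing receptor, and its adaptor Tyrobp differed by 0.01 and -0.02.

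**Figure D3:**
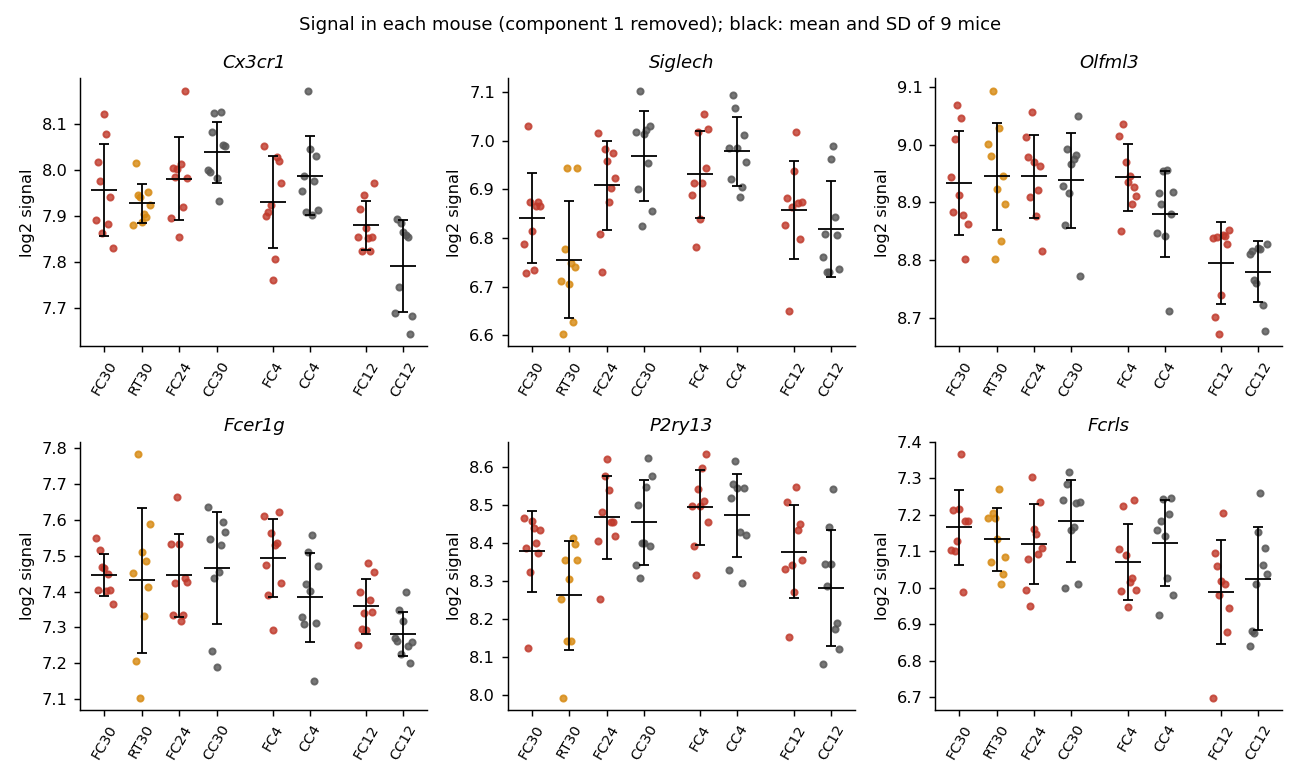
Log2 signal of 6 microglial genes in each mouse (points) over the 8 groups, with mean and SD of 9 mice in black, trained groups left of their controls. In the panel of Cx3cr1 every CC12 mouse lies below every CC30 and CC4 mouse, and in that of Siglech the RT30 group has the lowest mean, 6.76.

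Without the 6 arrays that stood apart, Cx3cr1 (-0.25, limma adjusted p = 0.00625), Olfml3 (-0.16, adjusted p = 0.0543) and Fcer1g (-0.21, adjusted p = 0.0680) still passed in CC12 against CC30, and Siglech (-0.13, adjusted p = 0.229) did not. In CC12 against CC4, Siglech still passed without them (-0.15, adjusted p = 0.0786). Other tissue varied between these groups as well. The 7 measured choroid plexus markers were all above 0 in CC12 against CC30 and all below 0 in FC12 against FC30. The summed choroid plexus level was 9.06, 10.24 and 12.75 (lowest, median and highest mouse) in CC12, against 9.04, 9.28 and 11.86 in CC30 and 9.13, 9.46 and 12.35 in CC4, with 0 of its 7 markers called. With that level as a covariate, chosen after seeing the data, Cx3cr1 kept -0.20 against CC30 (limma adjusted p = 0.0119) and Olfml3 -0.15 (adjusted p = 0.0653), while Siglech (-0.11, adjusted p = 0.303) and Fcer1g (-0.19, adjusted p = 0.150) no longer passed. Border macrophage genes had 0 of 9 calls in both comparisons, with 7 and 9 of the 9 above 0 in CC12 against CC30 and CC4, and median summed levels of 8.10 in CC12, 8.08 in CC30 and 8.03 in CC4. In CC12 against CC30 the lean below 0 was shared by other cells. The endothelial markers had a median of -0.11 (7 of 9 below 0), the oligodendrocyte precursor markers -0.07 (3 of 5), the oligodendrocyte markers -0.04 (5 of 8), and the neuron and astrocyte markers -0.02 each (7 of 9 and 7 of 10). In CC12 against CC4, where 24 of 29 members were below 0, the precursor markers had a median of -0.03 (4 of 5 below 0). The oligodendrocyte markers had -0.01 there (4 of 8), the neuron markers -0.003 (5 of 9), the astrocyte markers 0.01 (4 of 10) and the endothelial markers 0.03 (4 of 9). By calls, 1 of 8 oligodendrocyte genes (Opalin), 1 of 5 precursor genes (Olig2) and 1 of 9 endothelial genes (Pecam1) were lower in CC12 than in CC30, and 1 endothelial gene (Slco1a4) was higher. Against CC4, Opalin was lower, and the precursor gene Gpr17 and the red cell gene Alas2 were higher. Their part in the microglial differences was not tested.

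Trained mice were compared across the same clock times. All were trained at the same time of day, so in them clock time and delay since training cannot be told apart. In FC12 against FC4, 1 member was lower, Olfml3, where 1.71% of probe sets were called lower and 4.22% in either direction. Its signal was 8.67, 8.84 and 8.85 in FC12, against 8.85, 8.93 and 9.04 in FC4. Of the 9 FC12 mice 8 lay below every FC4 mouse, and the log2 fold change of Olfml3 was -0.15 (SE 0.03, limma adjusted p = 0.0200), which passed when any 1 array was left out and without the arrays that stood apart (-0.14, adjusted p = 0.0348). Against FC30 the difference of Olfml3 was -0.14 (SE 0.04, adjusted p = 0.128), and 0 of 29 members passed there, where 1.37% of probe sets did, with 2 higher and 4 lower at an unadjusted p under 0.05, which 10.3% of probe sets reached.

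Close to the threshold in FC12 against FC4 were Cd68, at -0.12 (SE 0.04, limma adjusted p = 0.103), Fcer1g, at -0.13 (SE 0.04, adjusted p = 0.124), and Tyrobp, at -0.11 (SE 0.04, adjusted p = 0.179). Irf8, a transcription factor that microglia need, stood on the other side at 0.16 (SE 0.05, adjusted p = 0.140), higher than the FC4 mean in 9 of 9 FC12 mice. Cx3cr1 had 7.82, 7.85 and 7.97 in FC12, against 7.76, 7.92 and 8.05 in FC4, and differed by -0.05 (SE 0.04). Beside these, the choroid plexus sum was 8.99, 9.58 and 11.95 in FC12 and 9.03, 9.45 and 12.24 in FC4, and called markers of other cells were Opalin, Aqp4, Pecam1 and Cdh5, lower, and Cldn11, Gpr17 and Slco1a4, higher, whose part was not tested.

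Whether the clock difference itself changed with training was tested with an interaction term. In the contrast of FC12 against CC12 minus FC30 against CC30, 0 of 29 members passed, where 0.0872% of probe sets did, and 3 members had an unadjusted p under 0.05, all positive, beside 5.35% of probe sets. Cx3cr1 gave 0.17 (SE 0.06, unadjusted p = 0.00401, limma adjusted p = 0.634), with group means of 7.88 in FC12, 7.79 in CC12, 7.96 in FC30 and 8.04 in CC30. Siglech gave 0.17 (SE 0.06, adjusted p = 0.811) and P2ry13 0.17 (SE 0.08, adjusted p = 0.926). A clock difference of Cx3cr1 that passed in untrained mice and not in trained ones is therefore not shown to differ between them. The interactions of FC4 with FC30 and of FC12 with FC4 called 0 of 29 members, where 0.045% and 0% of probe sets were called, with 1 and 2 members, and 7.12% and 4.44% of probe sets, under an unadjusted p of 0.05.

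Within the light phase the members did not separate. In CC4 against CC30, 0 of 29 passed, where 0.0731% of probe sets did, with 1 member, Tmem119, and 6.21% of probe sets under an unadjusted p of 0.05. In FC4 against FC30, 0 of 29 passed, where 0.596% of probe sets did, with P2ry13 at 0.12 (SE 0.05, limma adjusted p = 0.327) the only member, beside 12.5% of probe sets, under an unadjusted p of 0.05.

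**Figure D4:**
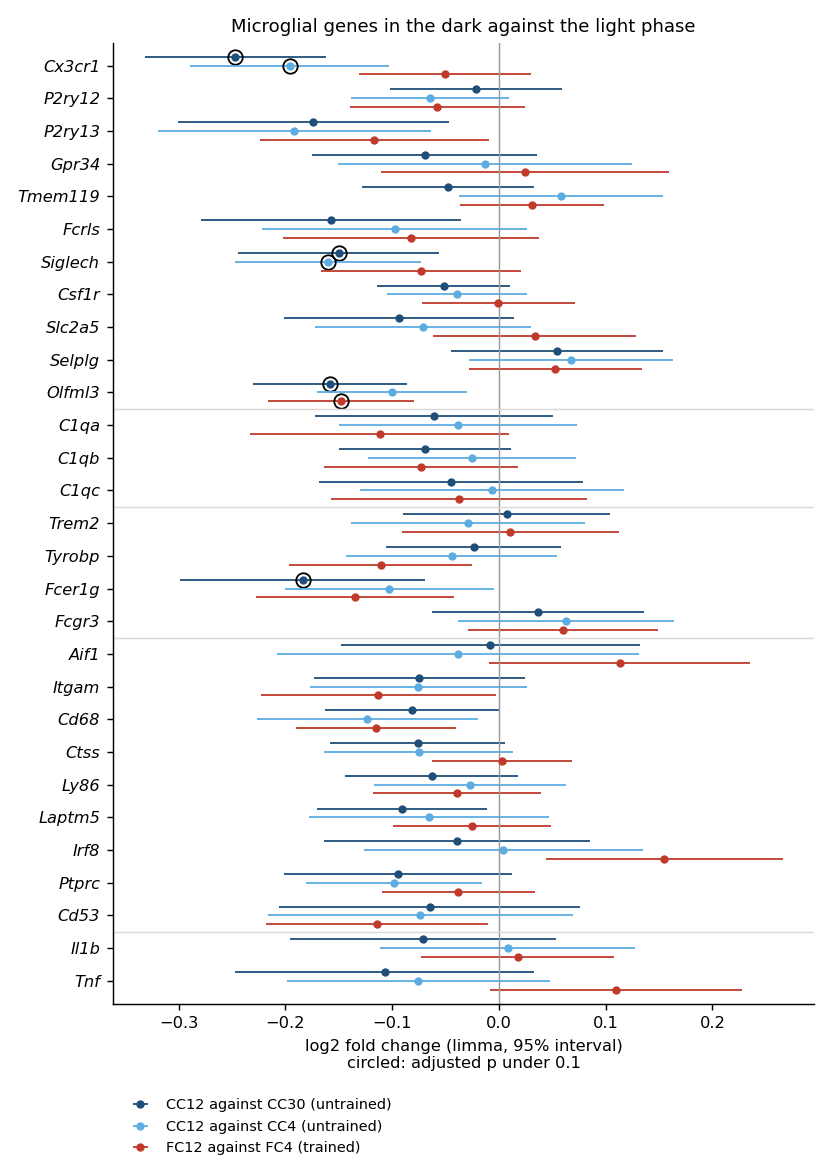
Log2 fold change of each of the 29 microglial genes (points, with 95% intervals from limma) in the dark against the light phase, for untrained mice (CC12 against CC30 and against CC4) and trained mice (FC12 against FC4), 9 mice in each group. In the trained mice the delay since training differs as well. Circles mark the 7 values past an adjusted p of 0.1, all below 0, of which Cx3cr1 in CC12 against CC30 is the farthest from 0 at -0.25.

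A second list of 25 microglial genes, 21 of them measured, did not lean one way with the clock. In CC12 against CC30, 2 were higher and 1 lower, with a median of 0.00. Mertk, a receptor for engulfing dead cells that astrocytes also carry, was higher by 0.31 (SE 0.04, limma adjusted p = 7.48e-04), with 9 of 9 CC12 mice above every CC30 mouse, and it was higher by 0.35 in FC12 against FC30 (adjusted p = 6.38e-04). Hpgd, an enzyme that breaks down prostaglandins, was higher by 0.21 (SE 0.05, adjusted p = 0.0289), and the integrin chain Itgb5 was lower, at -0.17 (SE 0.04, adjusted p = 0.0362). In CC12 against CC4 the calls were Mertk and Hpgd, higher, and the lectin Cd33, lower.

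Inflammatory genes outside the members changed in both directions with the clock. Of 27 measured, 2 were higher and 3 lower in CC12 than in CC30. Ptgs2, the inducible cyclooxygenase that neurons also make, was lower, at -0.35 (SE 0.05, limma adjusted p = 0.00111) in CC12 against CC30 and at -0.28 (SE 0.05, adjusted p = 0.00244) in FC12 against FC4. Tsc22d3 was higher by 0.45 (SE 0.05, adjusted p = 1.78e-04) in CC12 against CC30. Nfkbia was higher by 0.21 in that comparison, and Il18, a cytokine of the interleukin 1 family, and Irak3, a brake on its signalling, were lower, at -0.15 and -0.22. Gpnmb, a gene of microglia around damage, was lower, at -0.26 (SE 0.05, adjusted p = 0.0117), 1 of 13 measured genes of its list. Of 16 measured ligands and signals that other cells send to microglia, 1 was called in CC12 against CC30 (Tgfb2, lower at -0.17, adjusted p = 0.0713) and 1 in CC12 against CC4 (Nt5e, which makes adenosine, lower at -0.18, adjusted p = 0.0771).

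Mice within a group also differed from each other, and some members varied together. With group means removed, the 351 pairs among the 27 members other than the cytokines had a median Pearson r of 0.16 over 72 mice (280 above 0). Each of the 27 was also set against the mean of the other 26, for a median r of 0.37, beside 0.05 for the mean of the 27 against 18791 other genes, and 12 of the 27 lay above the 95th percentile of those genes (0.41). Csf1r, Fcrls and Laptm5 followed the rest most closely (0.58 each), whereas Aif1 (-0.17), Ptprc (-0.03), Ctss (0.08) and Trem2 (0.11) did not follow it. These values share the dissection, the plate and the removed component, and are given as a description.

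The chains of C1q, which are encoded side by side and assemble into 1 protein, were the tightest partners. In each pair below, the 2 farthest mice are those farthest from the median of the gene named first, whatever their value for the other gene. C1qb and C1qc had r = 0.71 and rho = 0.58 (r = 0.66 without the 2 farthest mice), C1qa and C1qc r = 0.63 and rho = 0.64 (0.60), and C1qa and C1qb r = 0.54 and rho = 0.58 (0.54). All had a permutation p for r of 1e-05, the smallest that the resampling can give, and an adjusted p of 3.3e-05 over the 10 pairs examined. Fcer1g and the IgG receptor Fcgr3, which uses it, had r = 0.34 and rho = 0.31 (r = 0.31 without the 2 farthest mice, adjusted permutation p = 0.0148 and 0.0314). Tyrobp and Fcer1g, both signalling adaptors, had r = 0.24 and rho = 0.23 (r = 0.25 without the 2 farthest mice, adjusted permutation p = 0.0998 for r and 0.101 for rho). The remaining 4 pairs had adjusted permutation p of at least 0.246 for r and 0.303 for rho. Among them r was -0.01 and rho 0.03 for Trem2 and Tyrobp, 0.00 and 0.02 for Cx3cr1 and P2ry12, -0.02 and -0.05 for Tmem119 and Selplg, and 0.17 and 0.16 for Il1b and Tnf. The ADP receptors P2ry12 and P2ry13 had r = 0.26 and rho = 0.28 (r = 0.24 without the 2 farthest mice, adjusted permutation p = 0.0839 for r and 0.0498 for rho).

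**Figure D5:**
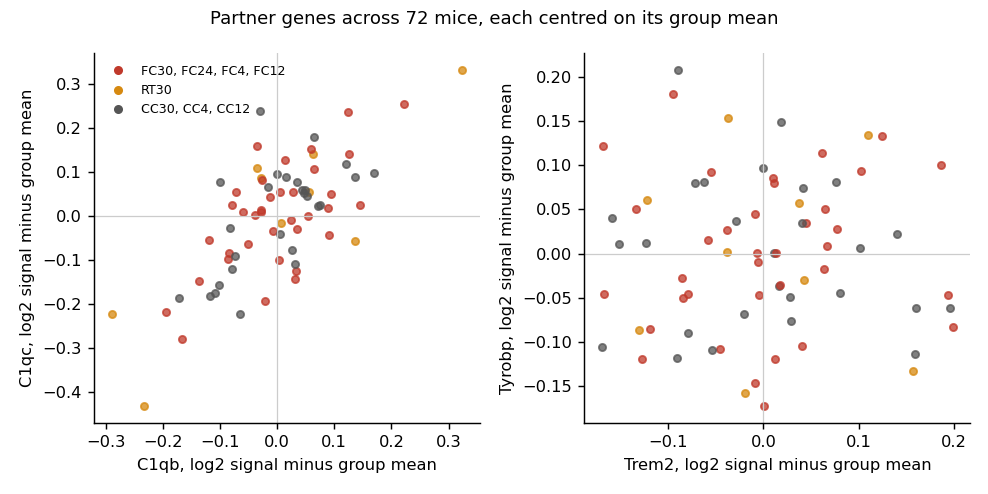
Log2 signal of C1qc against C1qb and of Tyrobp against Trem2 in 72 mice (points), each gene centred on its group mean. C1qb and C1qc rise together (r = 0.71), whereas Trem2 and Tyrobp do not (r = -0.01).

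The genes outside the list that most resembled the microglial mean over the 72 mice were S100b (r = 0.65), which marks astrocytes, Cmtm5 (0.65), Ralgds (0.65), Lrrc10b (0.64), Ifngr2 (0.63), a chain of the interferon gamma receptor, Rgs14 (0.63), Tmcc3 (0.63), Pld4 (0.63), Cavin3 (0.62) and Cfap161 (0.62). Members reached at most 0.58 against the rest of the list, so genes outside the members shared this covariation. The 10 genes were picked as the highest of 18791, and each member was set against a mean without itself. These highest values are therefore not directly comparable, and whether the covariation is particular to the members was not tested. Of the 21 measured genes of the second microglial list, 5 lay above the 95th percentile of other genes (0.41), with a median r of 0.29. When the first component was kept, 4 of the 10 genes named here were again among the 10 highest. The microglial mean itself, in log2 units around 0, was -0.11, -0.06 and 0.09 in CC12, against 0.00, 0.03 and 0.07 in CC30, and the groups overlapped.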

How the data were processed

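Total RNA from both hippocampi of each mouse was hybridised to Affymetrix Mouse Gene 1.1 ST arrays, 1 per animal and all together. The deposited values are log2 signals, which the authors made from the mean of repeated scans with RMA in Affymetrix Power Tools (background correction, quantile normalization and median polish). The genome build and software version are not given in the sources used here. Quantile normalization removes any change shared by most genes, and RMA compresses differences of dim probe sets.

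Sample labels gave the groups. The study's methods remove a first principal component. Here component 1 of the 72 arrays (17.4% of the variance, from 35556 centred probe sets, unscaled) was subtracted. The study gives its component a larger share of the variance, so the 2 may not be the same component, and no component removed was an alternative. The 18 arrays of a comparison were then fitted alone in limma (version 3.58.1, R 4.3.3) with two-sided tests, and called means that p, after Benjamini-Hochberg adjustment across every probe set, was below 0.1. The adjusted p values and standard errors quoted are limma's. Interactions used the arrays of 4 groups. The number of arrays limits the precision, with a median SE for the members of 0.04 to 0.05 in the 13 comparisons and 0.06 to 0.07 in the interactions. Levels are log2 signals after subtraction, and levels of different genes were not compared. The fit was tested on simulated data.

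Symbols came from the platform annotation of the array: 21218 probe sets carried 1 symbol, 1881 several and 12457 none. All 29 members and, from each other list, the genes past the threshold (up to 4 examples) were to be named. Other lists held 173 genes, 24 of them without a probe set of their own symbol. Members and lists were chosen with earlier results of these data known. Pairs of genes were tested with permutation tests in SciPy 1.17.1. Alternatives covered the handling of the component, the fit, the arrays and the filter on dim probe sets, and a choroid plexus covariate, a component found without the arrays that stand apart and the leaving out of single arrays were added after seeing the data.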

Additional observations from a re-analysis of the deposited data

Results flagged for a closer look

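Of 240 sets of 9 mice examined (29 members and their mean in 8 groups), 19 had 1 mouse far from the others of its group by Dixon's criterion, which chance gives in about 1 in 20 sets. On the log2 scale, the high mice were at 8.17 for Cx3cr1 in FC24 (group median 7.98), 7.45 for P2ry12 in RT30, 7.03 for Siglech in FC30, 8.60 for Csf1r in FC4, 6.66 for Slc2a5 and 7.96 for Ctss in FC30 (the same mouse, replicate 6), 5.79 for Ptprc in CC30, 7.00 for Cd53 in FC12 and 4.54 for Tnf in CC4. Low mice were at 7.02 for P2ry12 in FC4, 8.12 for P2ry13 in FC30, 8.71 for Olfml3 in CC4, 7.05 for Tyrobp in FC4, 8.74 for Ly86 in FC30, 8.57 for Ly86 in FC12, 5.32 for Ptprc in RT30, 6.69 for Cd53 in CC4 and 3.97 for Tnf in FC24. The mean of the 27 members without the cytokines was high in RT30 replicate 3, at 0.0850 against a group median of -0.01, and P2ry12 was high in the same mouse. Replicate 3 of FC30 was both the lowest mouse for P2ry13 and the highest for Siglech in its group. The low Olfml3 mouse is CC4 replicate 7, without which Olfml3 passed in CC12 against CC4.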

How the results depend on the processing

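Direction was followed for member values with an adjusted p under 0.1 or an unadjusted p under 0.05. None of these changed direction under the alternative settings fitted for it, 15 for most and 12 at the fewest. Other named values were not followed across settings. Cx3cr1 in CC12 against CC30 passed in 15 of 15 and in CC12 against CC4 in 14 of 15 (local false discovery rate 0.101), and Olfml3 passed in 12 of 15 in CC12 against CC30 and 13 of 15 in FC12 against FC4. Siglech and Fcer1g in CC12 against CC30 passed in only 7 and 6 of 15. The count of members called in CC12 against CC30, 4, became 2 with the first component as a covariate, with the methods' t-test and with the choroid plexus covariate, and 1 with local false discovery rates and with the component found without the arrays that stand apart. In CC12 against CC4 it was 2, and became 4 with no component removed, all 8 groups in one fit, an intensity trend, array weights or no dim probe sets, 5 with the first 2 components removed, 1 with the component found without the arrays that stand apart and 0 with local false discovery rates. In FC12 against FC4 it was 1, and became 3 with the first 2 components removed, 2 with an intensity trend, the methods' t-test or array weights, 4 without dim probe sets, and 0 with local false discovery rates or the component found without the arrays that stand apart. It was 0 in RT30 against CC30 and became 1 (Siglech) with no component removed, the component as a covariate, all 8 groups, array weights or no dim probe sets. It was 0 in FC12 against FC30 and became 1 with all 8 groups, an intensity trend or no dim probe sets. Leaving out 1 array gave 2 to 5 members in CC12 against CC30 (5 without CC12 replicate 6), 2 to 5 in CC12 against CC4 (5 without CC4 replicate 7), 1 to 3 in FC12 against FC4 (3 without FC4 replicate 3 or 5) and 0 to 1 in RT30 against CC30. The share of all probe sets called was kept for the main fit only. The counts under other settings and left-out arrays therefore cannot be set beside such a share. The cause of these shifts was not tested.

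The labels do not say whether a replicate number marks a shared experiment. In no comparison did more than 3 of 9 same-numbered pairs deviate together at a correlation over 0.1, so the numbers were not used as pairs. FC4 against CC4 had 3 such pairs (up to 0.376, median 0.0889, beside -0.0102 for mice of different number), and in 4 of 9 the best match was the own number. With the number as a replicate block, 1 member was called in CC12 against CC30 (Cx3cr1), 2 in CC12 against CC4 (Cx3cr1 and P2ry13, with Siglech lost at an adjusted p of 0.158) and 1 in FC12 against FC4, and 0 in every other comparison. Each member had 1 probe set, so averaging probe sets changed nothing. That setting is counted among the alternatives above, although it repeats the main fit for the members.

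Differences of dim genes and changes confined to few cells are limited by whole tissue signal.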
